A study of Mus musculus with 10 samples.

Results

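The nuclear genes for the subunits of respiratory complex I were followed in messenger RNA of gastrocnemius, a calf muscle made mostly of fast fibres, from mice with modelled chronic obstructive pulmonary disease (COPD) and from controls. Members were every row of the count table whose symbol is Ndufa, Ndufb, Ndufc, Ndufs or Ndufv followed directly by a number, with Ndufab1 added and the assembly factors named Ndufaf left out. There were 40 such rows in a table of 18025 genes, of which a filter on low counts kept 39. The row it removed was Ndufb4b, which held counts in COPD replicate 2 alone. The series has 5 COPD libraries, from mice in which cigarette smoke modelled the disease, and 5 control libraries. All 10 samples were labelled wild type, C57BL/6 and 8 weeks of age. The labels give no sex, no hour of collection and no amount or length of smoke exposure, and nothing in them ties each sample to a separate animal. The p-values therefore reflect sample-to-sample spread, part of which may be technical.

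Complex I is the entry point for NADH into the respiratory chain of mitochondria. Its matrix arm takes electrons from NADH through a flavin and a chain of iron-sulfur clusters to ubiquinone, and its membrane arm pumps protons. A catalytic core is shared with bacteria, and a large set of accessory subunits surrounds it. The enzyme is assembled from modules. The N module binds NADH, the Q module reduces ubiquinone, and the ND1, ND2, ND4 and ND5 modules of the membrane arm are each built around subunits of the mitochondrial genome, which were not analysed here. Muscle, and oxidative muscle fibres above all, is rich in the complex. Among the rows chosen by symbol, Ndufa4 is now known as a subunit of complex IV, and Ndufa4l2 encodes its hypoxia-inducible relative.

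Library totals ran from 14085806 to 17163559 counts in COPD and from 15637165 to 17250998 in control. The TMM scaling factors, which correct library totals for their composition, were 0.948 ± 0.0196 in COPD and 1.06 ± 0.0619 in control (SD, n = 5 each). By a two-sided exact permutation test this gave p = 0.0159, and 0.0317 after adjustment for the 2 library measures tested, so values per library total and TMM-scaled values place the groups differently. Along the first principal component of log2 CPM, where CPM is the count relative to the scaled library, COPD replicate 5 stood at -21.9, among the controls at -23.9 to -10.04, while COPD replicates 1 to 4 stood at 11.4 to 38.0. Y-linked genes together reached 1 CPM in the 5 controls and in COPD replicates 2 and 3 and not in COPD replicates 1, 4 and 5, so this split is confined to COPD. The muscle was of the fast type by its markers. The 9 fast-fibre markers were all detected and summed to 167221 to 204547 CPM in COPD and to 118798 to 186019 CPM in control, and the 7 slow-fibre markers, also all detected, to 94.98 to 338 CPM in COPD and to 139 to 967 CPM in control.

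In per-length terms the members spanned a wide range of levels in both groups. TPM is the authors' estimate of abundance corrected for transcript length. The 40 rows together took 2.30 ± 0.218% of all TPM in COPD and 2.14 ± 0.188% in control (SD, n = 5 each). The member median was 523 TPM in COPD and 480.4 TPM in control. Among the subunits with a module, the control mean of the highest was 13.0 times that of the lowest.

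Ndufa4, the complex IV subunit, was the highest row at 1739 ± 112 TPM in COPD and 1651 ± 176 TPM in control. Of the complex I subunits, the highest was Ndufa3, a small membrane protein of the ND1 module, at 1551 ± 253 TPM in COPD and 1446 ± 278 TPM in control. Next came Ndufb9 of the ND5 module at 1481 ± 182 TPM in COPD and 1425 ± 151 TPM in control, and the SDs of these 2 genes overlap in both groups. Ndufb4, Ndufb8 and the Q module's core subunit gene Ndufs7 followed. At the low end, Ndufa11 of the ND2 module had 121 ± 12.3 TPM in COPD and 112 ± 11.5 TPM in control, and Ndufs1, the largest core subunit of the matrix arm, had 138 ± 28.3 TPM in COPD and 129 ± 14.8 TPM in control. Ndufb4c, a relative of Ndufb4, was at 95.1 ± 16.4 TPM in COPD and 72.9 ± 13.7 TPM in control, and Ndufa4l2 at 21.2 ± 5.45 TPM in COPD and 22.8 ± 2.38 TPM in control (SD, n = 5 each).

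**Figure D1:**
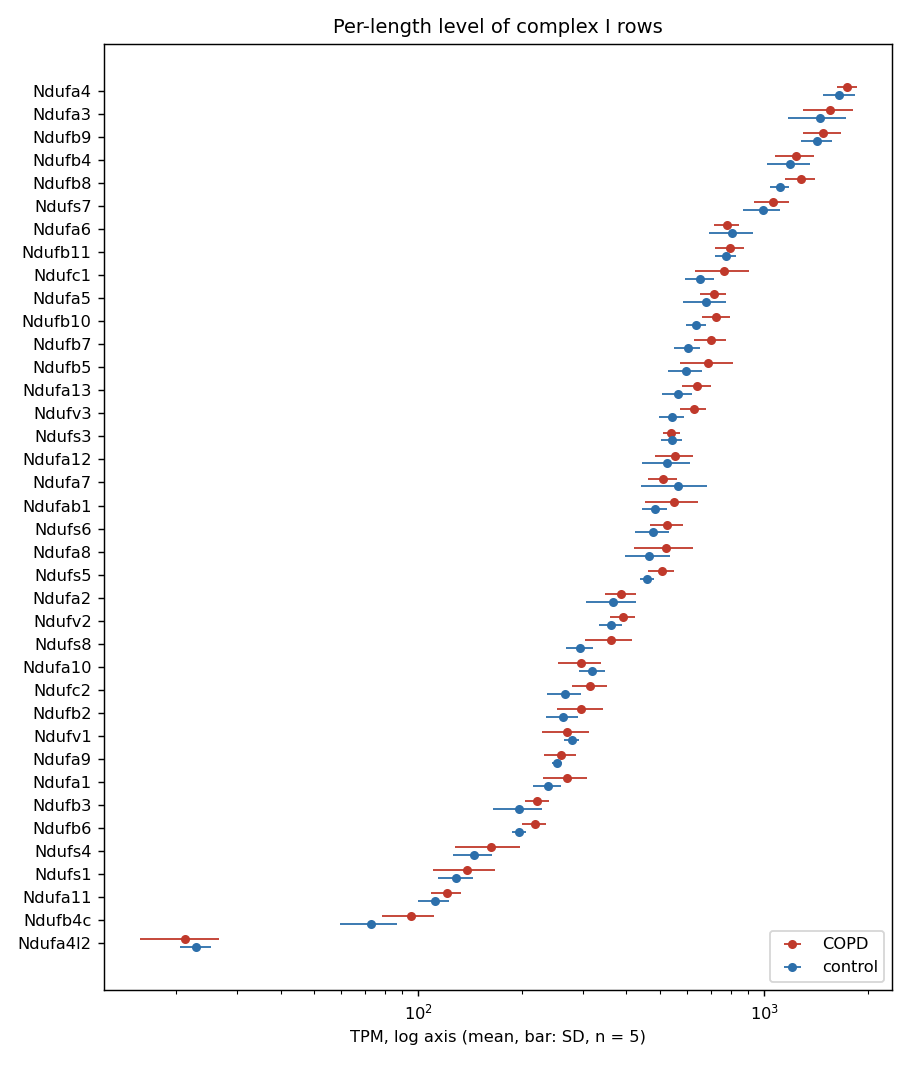
Mean TPM of 38 complex I rows in COPD (red) and control (blue) on a log axis, with bars for the SD of 5 libraries each, ordered by the mean over all 10 libraries. Ndufa4, Ndufa3 and Ndufb9 lead, Ndufs1 and Ndufa11 are the lowest subunits with a module, and Ndufb4c and Ndufa4l2 lie below them.

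In the comparison of COPD with control, which asks what differs in the muscle of the disease model, the fitted log2 fold changes of all 39 tested members were above 0, between 0.073 (Ndufa7) and 0.58 (Ndufb4c), with a median of 0.32. Here and in what follows, the error of a log2 fold change is its SE. Over all 12697 genes tested 48.0% were above 0, with a median of -0.012. No member passed an adjusted p of 0.05 by edgeR's quasi-likelihood test over all genes, which called 0.0630% of genes in either direction and 0.0551% higher. At a nominal p (before adjustment) below 0.05, 23 of the 39 were higher and 0 lower, against 7.94% of genes higher and 6.64% lower. The members share libraries and vary together, so these counts are not 39 independent results. DESeq2 called 5 members higher after adjustment (Ndufc2, Ndufb10, Ndufb6, Ndufv2 and Ndufs8), against 1.47% of genes, and voom with sample weights called Ndufc2 and Ndufb10, against 0.677% of genes. The DESeq2 share is over 17925 genes, without the filter on low counts. It is therefore not on the same base as the shares of edgeR and voom, which are over 12697. In bulk muscle, more cells or fibres of a kind and more RNA per cell cannot be told apart.

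The height of the difference depended on the scaling, while its position against other genes did so less. With library totals alone, 34 of 39 members were above 0, against 24.7% of genes. The member median was 0.17, and the median of all genes was -0.17. With limma on log2(TPM + 1), 32 of 39 were above 0, against 18.9% of genes. The member median was 0.12, and the median of all genes was -0.18. The member median thus lay 0.33 above that of all genes on the log2 scale with TMM, 0.33 with library totals and 0.30 with TPM. All 39 members lay above the median of all genes in each of these 3 fits. A scaling factor shifts all genes of a library about alike, so these gaps are close by construction. They are not independent checks. At a nominal p below 0.05, 4 of 39 members were higher with library totals, against 3.17% of genes, and 2 of 39 with TPM, against 2.24% of genes.

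**Figure D2:**
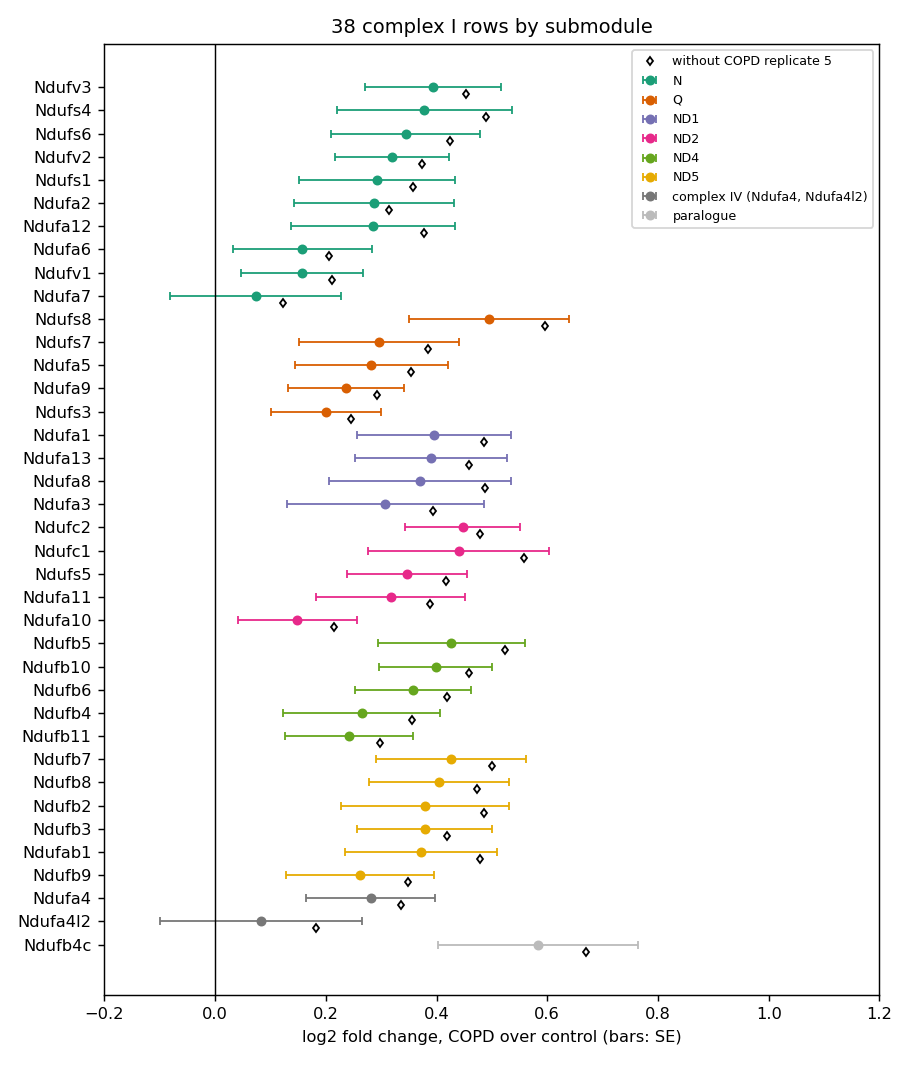
Log2 fold change of COPD over control for 38 tested rows, grouped by module, with bars for the SE; open diamonds give the value without COPD replicate 5. All 38 points lie to the right of 0, and each diamond lies to the right of its point.

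COPD replicate 5 stood apart from the other COPD libraries for these genes as it did on the principal component. It had the lowest of the 5 COPD values for 38 of the 39 members, and the same count over all genes was not made. The mean of the members' log2 CPM, each centred on its own mean over 10 libraries, was 0.33, 0.22, 0.22 and 0.20 in COPD replicates 1 to 4 and -0.18 in COPD replicate 5. In the controls it was -0.18, -0.26, 0.035, -0.028 and -0.35 in replicates 1 to 5. On this TMM-based scale COPD replicate 5 lay within the controls, and COPD replicates 1 to 4 lay above all of them. In TPM they did not. The 40 rows took 2.44, 2.30, 2.42, 2.42 and 1.92% of all TPM in COPD replicates 1 to 5, against 2.08, 2.08, 2.16, 2.44 and 1.93% in control replicates 1 to 5, and control replicate 4 was the highest of the 10 libraries.

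COPD replicate 5 was singled out after its values were seen, as the lowest COPD library for 38 of the 39 members. Leaving it out therefore tends to raise their fold changes by construction. The counts and p-values without it, here and below, are a description and no independent support. Without COPD replicate 5, 8 of the 39 members rose (adjusted p under 0.05 over all genes, edgeR), against 2.06% of genes, and 0 fell, against 1.15% of genes. The median log2 fold change was then 0.39, and 33 members were higher at a nominal p below 0.05, against 10.7% of genes. The 8 were Ndufs8, Ndufb5, Ndufb10, Ndufab1, Ndufc2, Ndufs5, Ndufb6 and Ndufc1. In TMM-scaled CPM, all 4 remaining COPD libraries exceeded all 5 controls for 25 of the 39 members, against 4.80% of genes. With all 10 libraries this held for 2 members, Ndufc2 and Ndufb10, against 1.29% of genes, and the reverse held for 0 members, against 1.55% of genes. In TPM, and in CPM scaled by library totals alone, the groups overlapped for every member.

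**Figure D3:**
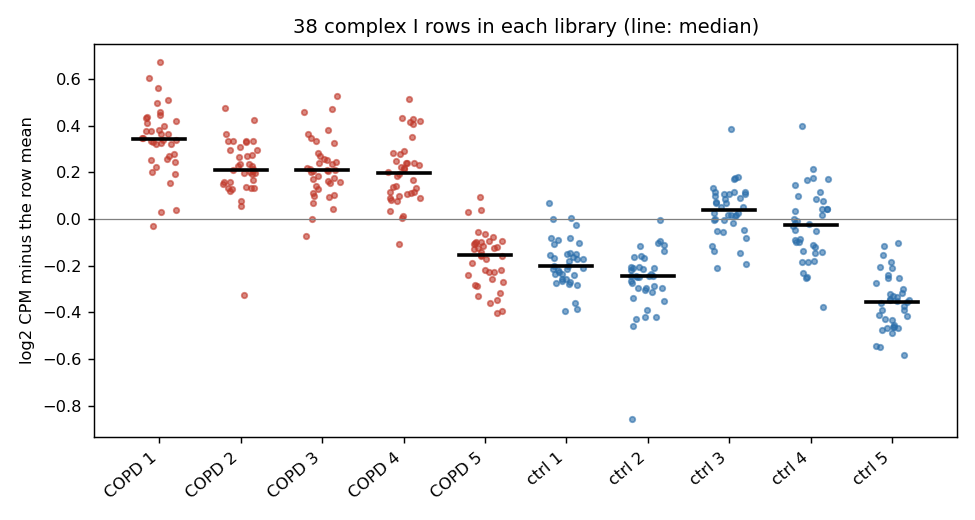
Each point is 1 of 38 complex I rows in 1 library, as log2 of TMM-scaled CPM minus the row's mean over 10 libraries; black lines are medians, COPD red and control blue. The medians of COPD replicates 1 to 4 lie above 0, and the median of COPD replicate 5 lies near that of control replicate 1.

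In the controls the members also moved together from library to library. Control replicate 5 had the lowest control value for 29 of the 39 members and control replicate 2 for 8, while control replicate 3 had the highest for 20 and control replicate 4 for 18. Among COPD libraries, COPD replicate 1 had the highest value for 24 members and COPD replicate 4 for 10. These counts were not made over all genes. The shortest of 4 length classes of all tested genes, centred in the same way, had its highest COPD mean in COPD replicate 1 (0.18). Its lowest COPD mean was in COPD replicate 5 (-0.080), with COPD replicates 2 and 4 at -0.014 and -0.047. Its highest control mean was in control replicate 4 (0.13) and its lowest in control replicate 5 (-0.098). The SD within a group was 14.6% of the mean in COPD and 13.8% in control for the median member.

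By module, the medians were larger in the membrane arm than in the matrix arm, a description for which no test was made. The medians of the log2 fold changes were 0.38 in the ND1 module (4 members), 0.35 in ND2 (5), 0.36 in ND4 (5) and 0.38 in ND5 (6), against 0.29 in the N module (10) and 0.26 in the Q module (6). Members at a nominal p below 0.05 were 3 of 4 in ND1, 4 of 5 in ND2, 3 of 5 in ND4, 5 of 6 in ND5, 4 of 10 in N and 2 of 6 in Q, all of them higher, against 7.94% of genes. The 7 catalytic core subunits, all in the matrix arm, had a median of 0.29 with 2 at a nominal p below 0.05. The 29 accessory subunits had a median of 0.36 with 19. Core genes were longer (median length 0.514 of the median tested gene, against 0.216 for accessory genes). With a trend over length removed, as described below, core and accessory medians were 0.22 and 0.27, with 3 and 18 at that threshold. By module that fit gave 6 of 10 in N (median 0.23), 1 of 6 in Q (0.19) and 3 of 4 in ND1 (0.29). It gave 3 of 5 in ND2 (0.27), 3 of 5 in ND4 (0.26) and 5 of 6 in ND5 (0.31), against 9.08% of genes.

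Because the members were higher together, their promoters were set side by side. RefSeq promoter windows (GRCm38.p6, 250 bases before to 50 after the start) matched 34 of the 40 members by symbol. Both strands were searched for exact letters. The motif of NRF1, a factor known to drive many respiratory chain genes, was in the windows of 7 of the 34 members (20.6%), against 5.19% of 27025 genes. The YY1 motif AAGATGGCG was in 5 of the 34 (14.7%), against 1.64% of genes. The GGGGCGGGG motif of SP1 was in 5 of the 34 (14.7%), against 12.9% of genes, and the ETS-family motif CCGGAAGT, which GABP can bind, was in 1 (2.94%), against 4.31%. The motif TCAAGGTCA of the estrogen-related receptors was in 0 of the 34, against 0.466% of genes. Matches of different motifs were allowed to overlap. The 27025 genes are all those with a promoter window, whether expressed in this muscle or not. The shares therefore do not set the members against genes of like expression. Whether a motif goes with the difference between COPD and control was not tested.

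The stretches with the NRF1 letters are shown because that motif was held by the most members. Each is written 5′ to 3′ along the gene with 10 bases on each side, capitals mark the match, and of several matches the one nearest to the start is given.
Ndufa11: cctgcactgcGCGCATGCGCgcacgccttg
Ndufa5: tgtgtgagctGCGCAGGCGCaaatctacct
Ndufa6: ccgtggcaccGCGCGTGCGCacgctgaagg
Ndufa8: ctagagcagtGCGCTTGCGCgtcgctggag
Ndufb4: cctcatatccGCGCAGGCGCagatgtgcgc
Ndufs5: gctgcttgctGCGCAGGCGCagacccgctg
Ndufs6: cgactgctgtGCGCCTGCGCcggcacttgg
The matches began between positions -98 (Ndufs5) and 24 (Ndufa6) from the start, where the first transcribed base is 1. The sixth base of the motif was free to vary, and 3 of the 7 matches (Ndufa6, Ndufa8 and Ndufs6) were on the opposite strand, so that their capitals read as the reverse complement. The Ndufa11 stretch lies at chr17:56717692-56717721, plus strand, and that of Ndufs6 at chr13:73328479-73328508, minus strand.

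The stretches with the YY1 letters are shown in the same way, cut at the end of the window where it was nearer.
Ndufa9: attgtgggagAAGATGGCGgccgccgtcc
Ndufc1: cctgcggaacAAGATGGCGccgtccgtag
Ndufs4: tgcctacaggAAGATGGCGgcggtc
Ndufs6: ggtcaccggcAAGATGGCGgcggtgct
Ndufs7: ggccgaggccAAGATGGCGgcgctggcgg
These 5 matches were all on the gene's own strand and began at positions 23 to 36, inside the transcribed part, and the letters AAGATGGCG include an ATG triplet. Ndufs6 held both motifs.

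For the 2 members whose COPD and control libraries did not overlap (Ndufc2 and Ndufb10) and for Ndufs5, which held an NRF1 match, the 250 bases before the start are given in full, with capitals for a match to any of the 5 motifs. They lie at chr7:97399753-97400002, plus strand, at chr17:24724424-24724673, minus strand, and at chr4:123718187-123718436, minus strand.
Ndufc2: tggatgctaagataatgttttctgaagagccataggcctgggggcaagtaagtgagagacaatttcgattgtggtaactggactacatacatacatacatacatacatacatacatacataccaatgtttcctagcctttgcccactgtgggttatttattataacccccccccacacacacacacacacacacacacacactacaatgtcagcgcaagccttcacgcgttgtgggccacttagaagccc
Ndufb10: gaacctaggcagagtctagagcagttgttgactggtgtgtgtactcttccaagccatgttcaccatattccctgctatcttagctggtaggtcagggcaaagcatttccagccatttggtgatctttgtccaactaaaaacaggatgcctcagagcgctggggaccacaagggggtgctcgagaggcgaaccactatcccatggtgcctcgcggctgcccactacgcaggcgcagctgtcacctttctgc
Ndufs5: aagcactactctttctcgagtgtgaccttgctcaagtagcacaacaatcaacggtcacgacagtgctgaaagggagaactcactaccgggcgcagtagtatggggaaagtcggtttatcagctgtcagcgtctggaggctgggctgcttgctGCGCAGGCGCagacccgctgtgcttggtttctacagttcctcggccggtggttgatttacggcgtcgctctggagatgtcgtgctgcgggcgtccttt
The first and the second held 0 matches of the 5 motifs. G and C made up 45.2% of the Ndufc2 stretch, 54.4% of that of Ndufb10 and 56.4% of that of Ndufs5. A match is a description of letters and not evidence of binding.

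The ND2 module, next to the hinge of the membrane arm, held the member with the smallest p. Ndufc2, an accessory membrane subunit, had 133, 122, 132, 148 and 119 CPM in COPD replicates 1 to 5, against 95.9, 81.2, 101, 109 and 92.2 CPM in control replicates 1 to 5. All COPD libraries lay above all controls, with COPD replicate 5 the lowest COPD library at 119 CPM and control replicate 4 the highest control at 109 CPM. The means were 131 ± 11.2 CPM in COPD and 95.9 ± 10.4 CPM in control (SD, n = 5 each). The fold change was 0.45 ± 0.10 on the log2 scale, adjusted p = 0.0973 by edgeR, and leaving out COPD replicate 5 made it 0.48 ± 0.11, adjusted p = 0.0392.

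Its partner gene Ndufc1 had 223, 211, 202, 170.4 and 122 CPM in COPD replicates 1 to 5, against 148, 118, 167, 132 and 119.8 CPM in control replicates 1 to 5. The first 4 COPD libraries lay above all controls, and COPD replicate 5 lay among the lowest. The fold change was 0.44 ± 0.16 on the log2 scale, adjusted p = 0.251 by edgeR, and 0.56 ± 0.13, adjusted p = 0.0444, without COPD replicate 5. Ndufs5, a small accessory subunit on the side of the intermembrane space, had 176, 159.8, 157, 152 and 123 CPM in COPD replicates 1 to 5, against 120.4, 115, 131, 128 and 110.2 CPM in control replicates 1 to 5. Here too COPD replicate 5 was the single COPD library inside the control range (0.35 ± 0.11 on the log2 scale, adjusted p = 0.183 by edgeR; without it 0.42 ± 0.095, adjusted p = 0.0413). Ndufa11 and Ndufa10 of the same module had log2 fold changes of 0.32 ± 0.13 and 0.15 ± 0.11, and that of Ndufa10 turned to -0.0069 with library totals alone and to -0.11 with TPM.

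In the ND4 module, Ndufb10 was the other member with groups apart. Ndufb10, an accessory subunit with disulfide bonds facing the intermembrane space, had 313, 308, 316, 320.2 and 249.99 CPM in COPD replicates 1 to 5, against 237, 214, 242, 244 and 206 CPM in control replicates 1 to 5. COPD replicates 1 to 4 lay close together, and COPD replicate 5 stood between them and the highest control (0.40 ± 0.10 on the log2 scale, adjusted p = 0.114 by edgeR). Leaving out COPD replicate 5 made it 0.46 ± 0.093, adjusted p = 0.0278. Ndufb6, a small membrane subunit, had 99.2, 88.8, 89.2, 88.6 and 72.3 CPM in COPD replicates 1 to 5, against 69.2, 65.1, 76.8, 70.0 and 60.6 CPM in control replicates 1 to 5. Only COPD replicate 5 lay inside the control range (0.36 ± 0.10 on the log2 scale, adjusted p = 0.156 by edgeR; without it 0.42 ± 0.096, adjusted p = 0.0415). Exons of Ndufb6 overlap those of Smim27 on the other strand in GENCODE M21, and no source used here says whether counting used strand, so its value is uncertain to that extent.

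Ndufb5, a further membrane subunit of the ND4 module, had 353, 307, 363, 373 and 236 CPM in COPD replicates 1 to 5, against 251.9, 209, 241, 269.9 and 242 CPM in control replicates 1 to 5. COPD replicate 5 was the second lowest of the 10 libraries, and the others of its group lay above all controls (0.43 ± 0.13 on the log2 scale, adjusted p = 0.183 by edgeR; without it 0.52 ± 0.11, adjusted p = 0.0284). Its exons overlap those of Mrpl47 on the other strand. Ndufb4 and Ndufb11 had log2 fold changes of 0.27 ± 0.14 and 0.24 ± 0.12. Some reads of Ndufb4 and Ndufb4c were shared out by the authors' estimate, and with which other rows was not traced. Both had 0 whole-number counts among 10 libraries, and their values are uncertain for that reason. Ndufb11 had 0 as well, and in all 9 members had some counts that were not whole. Ndufb4c had 35.0, 24.5, 30.4, 26.6 and 20.6 CPM in COPD replicates 1 to 5, against 18.9, 12.1, 23.7, 19.9 and 16.96 CPM in control replicates 1 to 5. It was the row with the largest log2 fold change (0.58 ± 0.18) and the lowest level but one in TPM of those tested, and COPD replicate 5 was inside the control range.

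**Figure D4:**
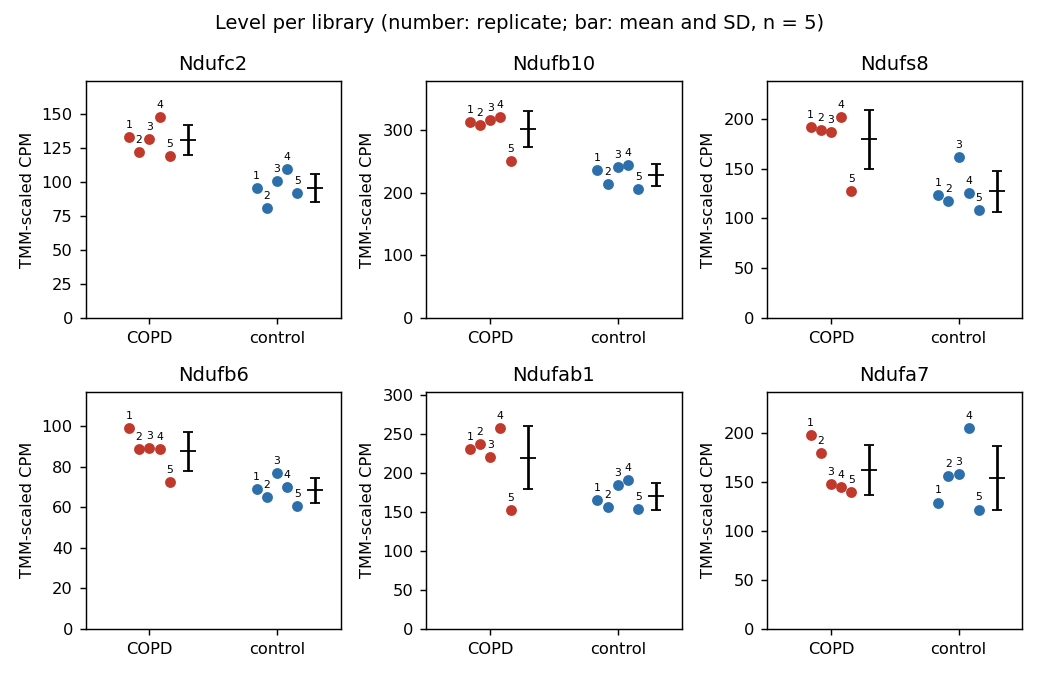
TMM-scaled CPM of 6 members in each library, COPD left of control, with the replicate number above each point and a black bar for the mean and SD of 5 libraries. Ndufc2 and Ndufb10 have no overlap between groups, in Ndufs8 and Ndufb6 COPD replicate 5 lies among the controls, in Ndufab1 it is the lowest of the 10 libraries, and in Ndufa7 the groups overlap widely.

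At the far end of the membrane arm, the ND5 module had 5 of 6 members at a nominal p below 0.05. Ndufb8, an accessory subunit often used on protein blots as a sign of assembled complex I, had 629, 528, 553, 538 and 431 CPM in COPD replicates 1 to 5, against 403, 377, 498, 394 and 353 CPM in control replicates 1 to 5. COPD replicate 5 lay below control replicate 3 and above the other controls (0.40 ± 0.13 on the log2 scale, adjusted p = 0.185 by edgeR). Ndufb7, another subunit of the intermembrane side, had 257, 243, 242, 205 and 177 CPM in COPD replicates 1 to 5, against 169.9, 152, 207, 169 and 139 CPM in control replicates 1 to 5. In this gene COPD replicates 4 and 5 both lay below control replicate 3 (0.43 ± 0.13 on the log2 scale, adjusted p = 0.189 by edgeR). Ndufb3, a small membrane subunit, had 117, 97.6, 99.3, 106 and 90.7 CPM in COPD replicates 1 to 5, against 82.6, 67.9, 81.0, 96.3 and 65.0 CPM in control replicates 1 to 5. COPD replicate 5 alone lay below the highest control (0.38 ± 0.12 on the log2 scale, adjusted p = 0.197 by edgeR).

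Ndufab1, the mitochondrial acyl carrier protein, serves lipoic acid and iron-sulfur cluster synthesis as well as complex I. It had 230.2, 237, 221, 257 and 152 CPM in COPD replicates 1 to 5, against 165, 156, 184, 190.1 and 153 CPM in control replicates 1 to 5. COPD replicate 5 was the lowest of all 10 libraries, and the other COPD libraries lay above all controls (0.37 ± 0.14 on the log2 scale, adjusted p = 0.248 by edgeR; without it 0.48 ± 0.10, adjusted p = 0.0355). Ndufb2 had a log2 fold change of 0.38 ± 0.15 and Ndufb9, the most abundant gene of the module in TPM, one of 0.26 ± 0.13.

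The 4 genes of the ND1 module, next to the Q module, had log2 fold changes of 0.40 ± 0.14 (Ndufa1), 0.39 ± 0.14 (Ndufa13), 0.37 ± 0.16 (Ndufa8) and 0.31 ± 0.18 (Ndufa3). Ndufa1 is X-linked in mouse and human. It had 101, 80.2, 78.8, 77.7 and 58.8 CPM in COPD replicates 1 to 5, against 53.3, 58.2, 68.5, 67.7 and 53.6 CPM in control replicates 1 to 5. COPD replicates 1 to 4 lay above all controls, and COPD replicate 5 lay within them (0.40 ± 0.14 on the log2 scale, adjusted p = 0.230 by edgeR). Ndufa13, also known as GRIM-19 for a role in interferon and retinoic acid induced cell death, averaged 517 ± 73.3 CPM in COPD and 395 ± 62.4 CPM in control (SD, n = 5 each), a difference of 0.39 ± 0.14 on the log2 scale, adjusted p = 0.231 by edgeR. Ndufa3 had 418, 319, 295, 293 and 235 CPM in COPD replicates 1 to 5, against 211, 254, 302, 309.9 and 184 CPM in control replicates 1 to 5. Its groups overlapped, with COPD replicates 3 and 4 below control replicates 3 and 4. Without COPD replicate 1, the highest library, its log2 fold change was 0.18.

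In the Q module the core subunit Ndufs8, which carries iron-sulfur clusters, had 192, 188, 187, 202 and 127 CPM in COPD replicates 1 to 5, against 123, 117, 162, 126 and 108 CPM in control replicates 1 to 5. COPD replicates 1 to 4 lay within a narrow band above all controls, and COPD replicate 5 lay below control replicate 3. The fold change, 0.49 ± 0.14 on the log2 scale, adjusted p = 0.157 by edgeR, was the largest among subunits with a module, and it was 0.60 ± 0.12, adjusted p = 0.0273, without COPD replicate 5. Ndufs7 and Ndufs3, which are core subunits as well, gave log2 values of 0.30 ± 0.15 and 0.20 ± 0.10 (exons of Ndufs3 overlap those of Kbtbd4 on the other strand), that of Ndufs3 turned to -0.0041 with TPM, and the accessory Ndufa5 and Ndufa9 gave 0.28 ± 0.14 and 0.24 ± 0.10.

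The N module held the subunit with the smallest log2 fold change, Ndufa7, and 4 members at a nominal p below 0.05. Ndufv3, an accessory subunit at the flavin end, had 222, 195, 187, 175 and 156 CPM in COPD replicates 1 to 5, against 133, 134, 175, 142 and 126 CPM in control replicates 1 to 5. COPD replicate 4 was just below and COPD replicate 5 further below control replicate 3 (0.39 ± 0.12 on the log2 scale, adjusted p = 0.184 by edgeR). Ndufv2, a core subunit with an iron-sulfur cluster, had 406, 385, 406, 399 and 325 CPM in COPD replicates 1 to 5, against 309, 289, 329.9, 337 and 273 CPM in control replicates 1 to 5. COPD replicate 5 alone lay below the highest controls (0.32 ± 0.10 on the log2 scale, adjusted p = 0.198 by edgeR).

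Ndufs1 and Ndufv1, the other core subunits of the N module, had log2 fold changes of 0.29 ± 0.14 and 0.16 ± 0.11. That of Ndufs1 was 0.19 without COPD replicate 4, and that of Ndufv1 turned to -0.053 with TPM. Ndufs4 and Ndufs6, accessory subunits whose loss causes complex I deficiency in mice, had 0.38 ± 0.16 and 0.34 ± 0.14. Ndufs4 had 158, 192, 198, 141 and 108 CPM in COPD replicates 1 to 5, against 138, 103, 121, 128 and 124 CPM in control replicates 1 to 5. COPD replicates 2 and 3 were the highest libraries and COPD replicate 5 the second lowest. When the fit was limited to libraries with Y-linked counts (2 COPD and 5 control), Ndufs4 alone of the members passed as higher (0.68, adjusted p = 0.0289, edgeR). A single member of 39 is near the 2.55% of all genes called higher in that fit. Its 2 COPD libraries, COPD replicates 2 and 3, were also the highest for Ndufs4. The median of the 39 members was 0.39 there, and 0.38 with a term for Y-linked counts.

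Ndufa2, Ndufa12 and Ndufa6, all accessory, gave 0.29 ± 0.14, 0.28 ± 0.15 and 0.16 ± 0.13 on the log2 scale. The sign of Ndufa6 turned with library totals alone and with TPM, and its value was 0.094 without COPD replicate 1, 0.24 without control replicate 4 and 0.10 without control replicate 5. Ndufa7 had 198, 179, 148, 145 and 139.5 CPM in COPD replicates 1 to 5, against 129, 155, 158, 205 and 122 CPM in control replicates 1 to 5. Control replicate 4 was the highest of the 10 libraries and control replicate 5 the lowest, and the groups overlapped throughout (0.073 ± 0.15 on the log2 scale, adjusted p = 0.874 by edgeR). The value turned to -0.092 with library totals alone, -0.12 with TPM and -0.026 with the length trend removed.

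The 2 rows that encode complex IV proteins follow. Ndufa4 had 563, 544, 540.2, 492 and 434 CPM in COPD replicates 1 to 5, against 393, 399, 469.7, 489.9 and 366 CPM in control replicates 1 to 5. COPD replicates 1 to 4 exceeded all controls, the last by little, and COPD replicate 5 was inside their range (0.28 ± 0.12 on the log2 scale, adjusted p = 0.296 by edgeR). Ndufa4l2 had 15.4, 9.69, 13.1, 16.2 and 9.18 CPM in COPD replicates 1 to 5, against 11.4, 11.4, 15.8, 11.3 and 10.2 CPM in control replicates 1 to 5. Both groups spanned nearly the same range (0.083 ± 0.18 on the log2 scale, adjusted p = 0.878 by edgeR). The sign turned with library totals alone, with TPM, without COPD replicate 4 and when Y-linked counts were taken into account. Its exons overlap those of Shmt2 on the other strand. The difference between the 2 genes was not tested. In all, 13 members had exons that overlap those of another gene of the table, each on the other strand.

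Most complex I transcripts are short, so their length was set beside the difference. Effective length, taken relative to the median tested gene from the ratio of counts to TPM, was 0.218 for the median member, and 37 of the 39 were in the shortest of 4 equal length classes. That class of 3175 genes had a median log2 fold change of 0.031, with 55.4% above 0, and the 37 members in it had a median of 0.34. The other classes had medians of -0.017, -0.033 and -0.022 in order of length. Across the 39 members, which share libraries and are not independent, Spearman's rho between length and log2 fold change was -0.29, and across all 12697 genes it was -0.077. When a smooth trend over length was removed from each library, 38 of 39 members were above 0, against 49.9% of genes, with a median of 0.26, and 22 had a nominal p below 0.05, against 9.08% of genes higher.

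**Figure D5:**
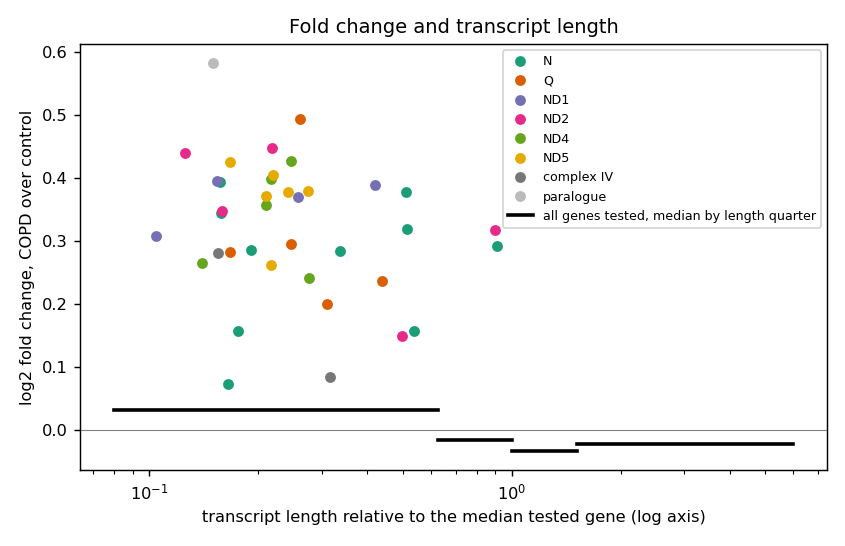
Log2 fold change of COPD over control against transcript length relative to the median tested gene (log axis) for 38 members, coloured by module; black lines are medians of all tested genes in each of 4 length classes, clipped at the edges of the plot. The members lie to the left and above the lines.

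Markers of fibre types and of other cells were set beside the members. All 7 slow-fibre markers had log2 fold changes below 0 with a median of -1.38, 2 of them at a nominal p below 0.05. For this and the marker lists that follow, the shares over all genes at that threshold were 7.94% higher and 6.64% lower. The slow-fibre sum was 338 CPM in COPD replicate 5 and 94.98 to 189.6 CPM in COPD replicates 1 to 4, which had the higher member levels. In control replicates 1 and 4 it was 967 and 611 CPM, and in control replicates 2, 3 and 5 it was 139 to 149.9 CPM. Control replicates 1 and 4, with the highest slow-fibre sums, stood at -0.18 and -0.028 in the mean of the members, and COPD replicate 3, with the lowest sum, at 0.22. Control replicates 2, 3 and 5, with low sums as well, stood at -0.26, 0.035 and -0.35. Myh2, the marker of fast oxidative fibres, had a log2 fold change of -0.44 ± 0.52 (adjusted p = 0.752 by edgeR). It had 181 to 786 CPM in COPD and 221 to 1590 CPM in control. The 9 fast-fibre markers were all above 0 with a median of 0.23 (2 at a nominal p below 0.05). The 8 macrophage markers were all below 0 with a median of -0.61 (4 at a nominal p below 0.05), and their sum was 34.2 to 107 CPM in COPD and 68.0 to 123 CPM in control, while 3 of 4 tested tendon markers were above 0 (2 at a nominal p below 0.05) and the sum of the 5 listed was 71.6 to 194 CPM in COPD and 34.0 to 82.2 CPM in control. The 4 fibroblast markers, 3 of them above 0 and 1 at a nominal p below 0.05, summed to 278 to 575 CPM in COPD and to 331 to 449 CPM in control. No marker on these lists was at 0 in all libraries. The part of these cells in the difference of the members was not tested.

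Other genes of the pathway gave the following. Of the 19 tested assembly factors, which build the complex and do not stay in it, 14 had a positive log2 fold change (median 0.082). At a nominal p below 0.05, 3 were higher and 0 lower, against 7.94% of genes higher and 6.64% lower. These 3 were Tmem126a (0.30 ± 0.11), Ndufaf5 (0.40 ± 0.16) and Dmac2 (0.30 ± 0.12), with adjusted p of 0.236, 0.271 and 0.294 by edgeR. The subunits of the other complexes had medians of 0.20 in complex II (4 genes), 0.30 in complex III (9), 0.31 in complex IV (14) and 0.29 in complex V (17). In that order, 1, 6, 7 and 7 of them were higher at a nominal p below 0.05, against 7.94% of genes. Mitochondrial genes outside the respiratory chain had a median of 0.023, with 2 of 18 higher and 1 lower at that threshold, against 7.94% and 6.64% of genes. No gene of these lists passed the adjusted threshold by edgeR. Whether complex I differed from any of these lists was not tested.

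Of the 15 regulators of mitochondrial genes, a nominal p below 0.05 was reached by 2 that were higher and 1 that was lower. Over all genes the shares were 7.94% higher and 6.64% lower, and in a list of 15 these counts are near them. Esrra, the estrogen-related receptor alpha, averaged 102 ± 16.6 CPM in COPD and 78.9 ± 5.68 CPM in control (0.37 ± 0.12, adjusted p = 0.197). Ppard, a fatty acid receptor of oxidative muscle, averaged 68.8 ± 8.54 CPM in COPD and 56.8 ± 5.28 CPM in control (0.28 ± 0.11, adjusted p = 0.272). Nrf1, the factor of the motif shown for 7 members, averaged 13.8 ± 1.79 CPM in COPD and 16.3 ± 0.982 CPM in control (-0.24 ± 0.11, adjusted p = 0.340; CPM with SD, n = 5 each, and edgeR's log2 fold change with SE). These 3 did not pass over all genes.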

How the data were processed

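Messenger RNA of gastrocnemius was sequenced in 5 COPD and 5 control samples, grouped by their titles. The authors deposited expected counts per gene, which need not be whole (30.7% were not), and TPM values, corrected for transcript length. Per the submitters' processing notes, the tools were RSEM 1.2.12, Bowtie2 2.2.5, HISAT2 2.0.4 and DESeq2 1.4.5, with the build mm9. Whether counting used strand is not stated there or in the labels.

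Expected counts were rounded, filtered with filterByExpr and scaled by TMM. edgeR 4.0.16 (R 4.3.3; glmQLFit, glmQLFTest) compared COPD with control over 12697 genes with Benjamini-Hochberg adjustment at 0.05. An SE is the log2 fold change over the square root of F. Log2 CPM used a prior count of 2. Single library measures had two-sided exact permutation tests over 252 relabelings. Alternatives used DESeq2 1.42.0, limma 3.58.1 and voom. The length trend was a lowess curve per library. Libraries within a group differed by more than counting error (chi-square over its degrees of freedom, 17.6 to 96.4).

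The members, lists and tests were chosen with earlier results of these data known. Named members were the 12 with the smallest p, the highest and lowest in TPM of each module, Ndufa4, Ndufa4l2, Ndufab1 and the row removed by the filter; the rest are named for completeness, after their values were seen. Of genes outside the members, up to 3 with the smallest p were named from the assembly factors and from the regulators. RefSeq promoters (GRCm38.p6) and GENCODE M21 exons were matched by symbol. The values of 1 member are not reported here; it is in the counts and medians but not in the figures. Figures were drawn with matplotlib 3.10.9.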

Additional observations from a re-analysis of the deposited data

Results flagged for a closer look

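Of 80 groups of 5 library values (the 39 tested members and their mean, in COPD and in control), 8 held a library whose gap to its neighbour took more than 0.71 of the group's range. Chance gives about 1 in 20 for independent groups, which these are not: the members share libraries and vary together, and the mean is made of them. For 6 of the 8 that library was COPD replicate 5, as the lowest of its group. It had 249.99 CPM for Ndufb10 with the next COPD library at 308 CPM, and 127 CPM for Ndufs8 with the next at 187 CPM. It had 325 CPM for Ndufv2 with the next at 385 CPM, and 108 CPM for Ndufb2 with the next at 159 CPM. For Ndufs7 it had 375 CPM with the next at 511 CPM. The mean of the 39 members' centred log2 CPM was -0.18 in that library. Ndufa2 stood out in COPD replicate 1, the highest of its group at 178 CPM with the next at 138 CPM, and Ndufa4l2 in control replicate 3, the highest of its group at 15.8 CPM with the next at 11.4 CPM.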

How the results depend on the processing

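The member median stayed above 0 under every alternative run, from 0.12 with limma on log2(TPM + 1) or log2(TPM + 0.1) and 0.13 without a filter to 0.39 without COPD replicate 5. It was 0.28 to 0.39 when 1 library was left out. Members passing the adjusted threshold numbered 0 of 39, 5 with DESeq2, 2 with voom, 1 (Ndufs4) over libraries with Y-linked counts and 0 to 8 without 1 library. Members at a nominal p below 0.05 numbered 23, against 4 with library totals alone, 2 and 3 with TPM, 3 with TPM and no filter, and 16 to 33 without 1 library. Members with groups apart numbered 2, and 0 with library totals alone or TPM. All genes called numbered 8, against 414 with DESeq2, 17 with no filter, 67 and 65 with TPM, 2 with TPM and no filter, 137 with voom, 22 with the length trend removed, 488 over libraries with Y-linked counts, 216 with a term for them and 0 to 410 without 1 library. The log2 fold change of Ndufa6 became -0.0016 with library totals alone and -0.041 with TPM at either pseudocount or without a filter. That of Ndufa4l2 became -0.062 with library totals, -0.14 with TPM at each of these settings, -0.067 over libraries with Y-linked counts and -0.075 with a term for them, and it ran from -0.019 (without COPD replicate 4) to 0.20 (without control replicate 3) when 1 library was left out. The cause was not tested. The replicate numbers share no stated origin, and deviations of same-numbered samples correlated at -0.14 to 0.04. With a replicate block, 24 members had a nominal p below 0.05, 7 genes were called and the member median was 0.32. Leaving out COPD replicate 5 also removes a sample, and it was singled out after its values were seen. Members at 12.7 CPM (Ndufa4l2) and 27.4 CPM (Ndufb4c) in COPD carry the most counting error.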

Other observations

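Genes of the other respiratory complexes also passed the adjusted threshold of edgeR once COPD replicate 5, the library that lay with the controls, was left out. They were Cox5a and Cox7a1 among the 14 subunits of complex IV and Atp5g3 and Atp5j among the 17 of complex V, where 2.06% of all genes were called higher. With all 10 libraries Cox5a, a subunit around the catalytic core, averaged 553 ± 80.2 CPM in COPD and 422 ± 43.1 CPM in control, and Cox7a1, the heart and muscle isoform, averaged 309 ± 70.8 CPM in COPD and 208 ± 52.0 CPM in control. Atp5g3, a gene for the rotor ring of ATP synthase, averaged 432 ± 74.5 CPM in COPD and 319 ± 36.5 CPM in control (SD, n = 5 each). Outside the chain, Thbs4 of the tendon list and Col3a1 of the fibroblast list rose and Lyz2 of the macrophage list fell in that reduced set, where 1.15% of genes were called lower. Thbs4 averaged 64.9 ± 18.2 CPM in COPD and 28.6 ± 6.94 CPM in control. These genes were picked after their values were seen.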
